A study of Mus musculus with 17 samples.

Results

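The genes described here are 9 enzymes of the methionine cycle and of methylation in mouse liver, Mat1a, Mat2a, Ahcy, Bhmt, Cbs, Cth, Gnmt, Pemt, and Nnmt. They were found by symbol in the deposited table of log2 ratios, which names 21452 genes, and 11 of the 41174 non-control probes of the array carry 1 of the 9 symbols. Livers came from 17 male mice on 2-color oligonucleotide arrays, with 1 array per mouse. All mice were fed for 3 months and received a single gavage 9 hours before the liver was taken. The chow group (4 mice, Chow+maltose in the labels) had a regular diet and maltose, the 1B group (4 mice, Chow+binge) the same diet and ethanol at 5 g/kg, the HFD group (4 mice, HFD+maltose) a high-fat diet and maltose, and the HFD+1B group (5 mice, HFD+binge) the high-fat diet and ethanol at 5 g/kg. The labels give the strain as C57BL/6N and the methods as C57BL/6J. No ungavaged mice were analysed here, and every difference is read 9 hours after the gavage.

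The methionine cycle makes S-adenosylmethionine, the methyl donor of the cell, and the liver carries out much of it. Methionine adenosyltransferases join methionine and ATP, methyltransferases then use the methyl group and release S-adenosylhomocysteine, and S-adenosylhomocysteine hydrolase splits this into adenosine and homocysteine. Homocysteine is either methylated back to methionine, in the liver also with betaine from choline, or passed on through transsulfuration to cysteine and glutathione. The pathway has long been studied in alcohol-fed and fat-fed animals.

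The measure throughout is the log2 ratio of liver RNA (Cy5) to a reference RNA common to all arrays (Cy3), so a difference of 1 between groups is a fold of 2. All arrays used the same dye assignment, and the level of one gene cannot be set against that of another. In bulk liver, fewer cells of a type and less RNA per cell cannot be told apart. All 11 probes gave signals well above background in both channels on 17 of 17 arrays, and none was saturated. The sequences of 5 of these 60-base probes are shown, written 5′ to 3′ as the deposited table gives them with no base marked, because the results below turn on them. The Bhmt probe carries the called difference of the ethanol effects between the diets. The Gnmt probe carries opposite changes with ethanol and with diet, and the Nnmt probe the largest single difference. The Pemt probe is the second of a pair that moved alike. The Ahcy probe is the second of a pair that were both highest in chow, of which only the brighter passed the test. Each sequence occurs once in the table.
Bhmt, A_51_P335051: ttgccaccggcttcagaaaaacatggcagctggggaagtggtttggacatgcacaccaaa
Gnmt, A_51_P419439: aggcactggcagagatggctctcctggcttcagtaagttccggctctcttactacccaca
Nnmt, A_51_P476767: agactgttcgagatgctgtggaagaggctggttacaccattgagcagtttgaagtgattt
Pemt, A_51_P352057: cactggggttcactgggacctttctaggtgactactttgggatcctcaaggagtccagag
Ahcy, A_52_P176160: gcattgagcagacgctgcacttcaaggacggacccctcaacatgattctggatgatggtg

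Several facts of the arrays stand beside the results. All 5 slides carried arrays of more than 1 group. The median Cy5 intensity above local background was 42 to 76 units in the HFD group and 48.75 to 137 units in the others. The probe of 18S ribosomal RNA (Rn18s) had log2 ratios of -3.94 to -2.11 in the HFD mice, 0.73 to 1.35 in the chow mice, and -0.94 and above in every mouse given ethanol, so that the HFD group did not overlap any other. Its part in the results on the HFD group was not tested. Scanner software marked some spots as outliers, which were left out: those of HFD mouse 1 for Mat1a, Ahcy, Bhmt, and Gnmt, those of chow mouse 3, 1B mouse 4, and HFD mouse 3 for Cth, and that of chow mouse 1 for the second Ahcy probe. Of the hepatocyte markers, 9 of 10 were tested, all well above background in every group. In 1B against chow, 1 of 13 neutrophil, 1 of 10 stellate cell, and 1 of 7 sinusoidal endothelial markers rose and none of any list fell. In HFD against chow, 4 of 10 stellate cell, 3 of 8 macrophage, 2 of 7 sinusoidal endothelial, and 1 of 13 neutrophil markers rose, 2 of 6 cholangiocyte markers fell, and of the hepatocyte markers Apoa2 rose (0.47) while Apob (-2.77) and Tat (-1.36) fell. In HFD+1B against HFD, 3 of 10 stellate cell, 3 of 6 cholangiocyte, 2 of 9 T and B cell, and 2 of 8 pancreatic acinar markers rose, 2 of 13 neutrophil markers rose and 1 fell, 1 of 7 sinusoidal endothelial markers rose and 4 fell, and of the hepatocyte markers Tat (2.79) and Apob (2.28) rose while Apoa1 (-0.61) and Apoa2 (-0.53) fell. In HFD+1B against 1B, 4 of 10 stellate cell markers rose, 1 of 7 sinusoidal endothelial markers rose and 2 fell, 1 of 9 hepatocyte markers rose and 1 fell, and 1 marker each of neutrophils, macrophages, cholangiocytes, and acinar cells rose. In HFD+1B against chow, 7 of 10 stellate cell markers rose, 3 of 13 neutrophil markers rose and 1 fell, 1 of 7 sinusoidal endothelial markers rose and 3 fell, 1 of 8 macrophage, 1 of 6 cholangiocyte, 1 of 8 pancreatic acinar, and 1 of 9 hepatocyte markers rose, and no T and B cell or adipocyte marker was called. The summed Cy5 signal of 7 stellate cell markers ranged over 1900 to 2370 units (chow), 2040 to 2280 (1B), 2310 to 2630 (HFD), and 2390 to 3310 units (HFD+1B), while that of 4 hepatocyte markers measured on every array, in the same order of groups, ranged over 287000 to 353000, 282000 to 302000, 370000 to 459000, and 251000 to 322000 units. The part of cell composition in the results was not tested.

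Ethanol on chow changed 6 of the 9 genes: Mat1a, Mat2a, Bhmt, and Gnmt rose, while Ahcy and Cth fell. Calls are from limma, with 0.05 as the largest adjusted p accepted, for the probe of each gene brightest in Cy5, and 3.62% of the 34664 probes tested were called in the same comparison (1.84% higher and 1.78% lower). High-fat diet with maltose changed 4 genes, with Bhmt higher and Ahcy, Cth, and Gnmt lower, against 9.97% of all probes (3.88% higher and 6.10% lower). Ethanol on HFD raised Mat2a and Nnmt and lowered Bhmt and Pemt, 4 genes against 17.9% of all probes (9.92% higher and 8.01% lower). With both exposures against neither, 6 genes were called, Mat1a, Mat2a, and Nnmt higher and Ahcy, Cth, and Pemt lower, against 14.8% of all probes (7.79% higher and 6.98% lower). Between the ethanol groups, 4 genes were lower on HFD (Ahcy, Bhmt, Gnmt, and Pemt) and none was called higher, where 4.71% of all probes were lower and 5.31% higher. The effect of ethanol differed between the diets for Bhmt only among the 9, by the adjusted p, with 1.60% of all probes called negative as Bhmt was and 2.50% positive, and at an unadjusted p of 0.05 or less for Bhmt and Pemt.

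By the rule of a 2-fold change with an unadjusted p up to 0.05, the numbers of the 9 genes were 3, 1, 1, 0, 4, and 1 for 1B minus chow, HFD minus chow, HFD+1B minus HFD, HFD+1B minus 1B, HFD+1B minus chow, and the difference of the ethanol effects. The shares of all probes were 0.854%, 1.60%, 1.75%, 1.52%, 2.46%, and 2.03%. The median difference of the 9 genes was 0.63 for 1B minus chow, -0.01 for HFD minus chow, 0.28 for HFD+1B minus HFD, -0.36 for HFD+1B minus 1B, 0.34 for HFD+1B minus chow, and -0.03 for the difference of the ethanol effects. The same medians over all probes tested lay between -0.0089 and 0.0065. The individual values of the 2 groups did not overlap for 7 genes in 1B against chow, 4 in HFD against chow, 3 in HFD+1B against HFD, 3 in HFD+1B against 1B, and 5 in HFD+1B against chow. Over all probes, the groups did not overlap for 11.1%, 18.3%, 14.4%, 10.4%, and 14.5%, respectively. The comparisons share groups and are not independent of one another. No called difference of the 9 genes changed its sign under any of the other settings tried.

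**Figure D1:**
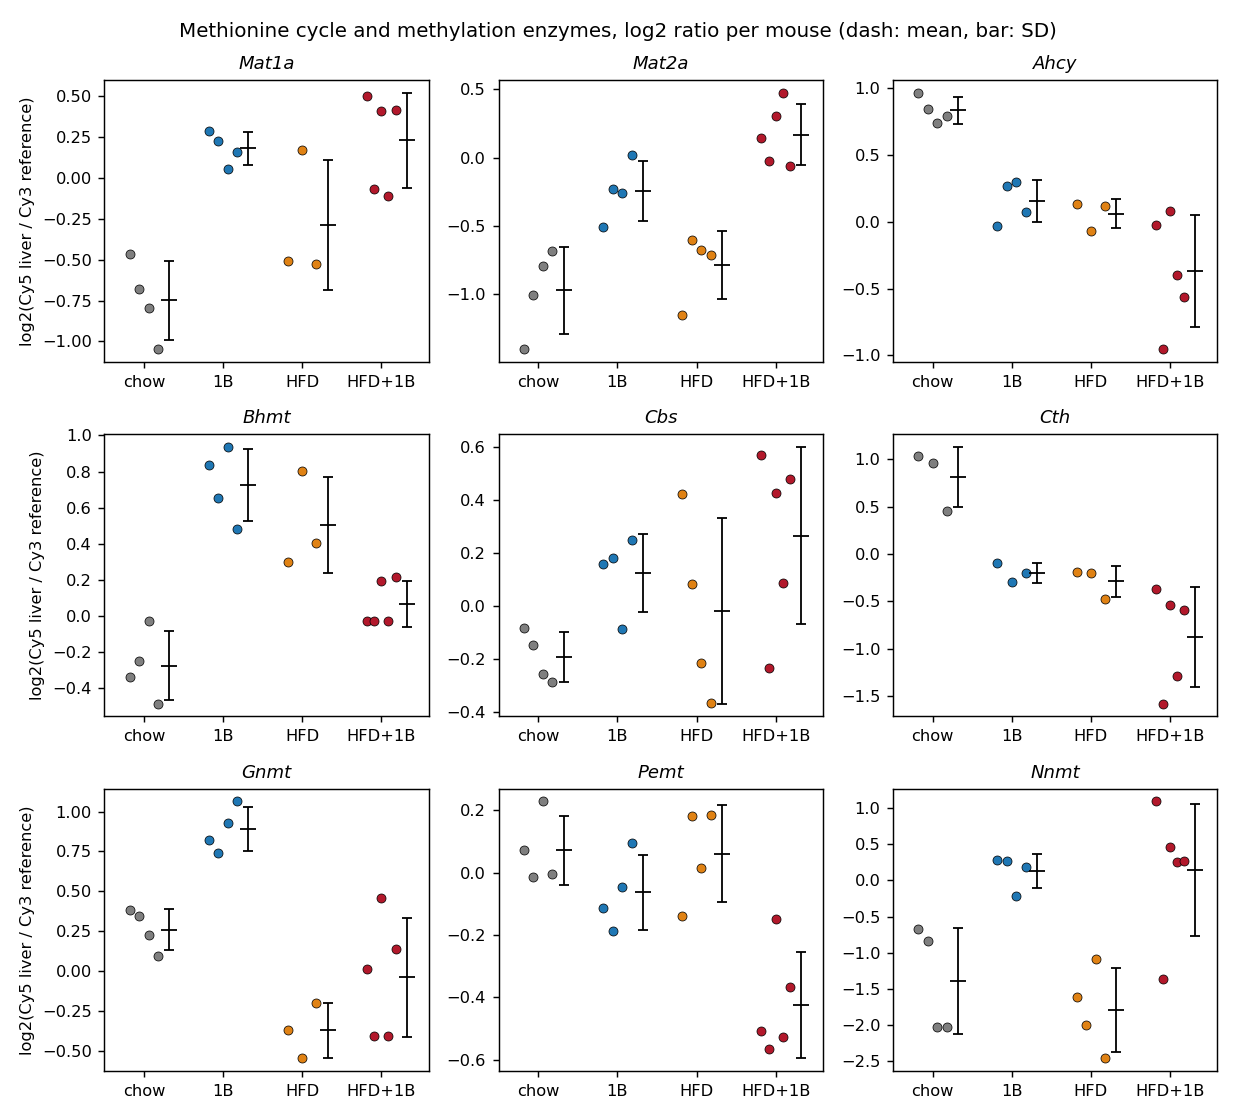
Log2 ratio of liver to reference (vertical axis, own scale in each panel) for the brightest probe of each of the 9 genes, with 1 point per mouse for chow, 1B, HFD, and HFD+1B, a dash for the group mean, and bars for the SD. Bhmt was lowest in chow and highest in 1B, Ahcy and Cth were highest in chow, and 1 HFD+1B mouse lay far below the other 4 for Nnmt.

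**Figure D2:**
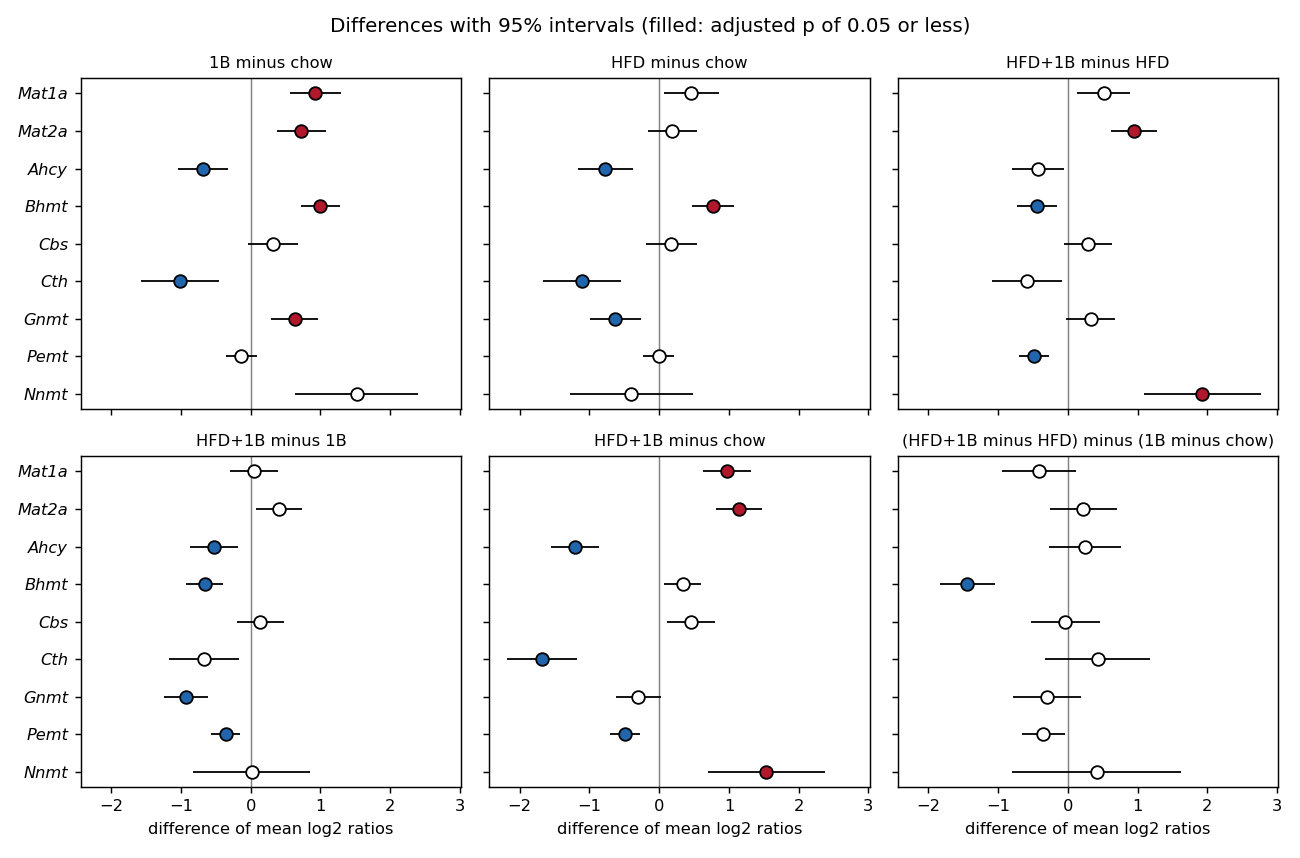
Difference of mean log2 ratios (horizontal axis) with its 95% interval for each of the 9 genes in 6 comparisons, filled red (higher) or blue (lower) where the adjusted p was 0.05 or below. In the last panel, the difference of the ethanol effects between the diets, Bhmt alone is filled, at -1.44.

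The methionine adenosyltransferases rose with ethanol on chow and were high in the HFD+1B livers. Mat1a encodes the enzyme subunit of adult hepatocytes. Its log2 ratios were -0.47, -0.68, -0.80, and -1.05 in the chow mice and 0.29, 0.22, 0.05, and 0.16 in the 1B mice. In the HFD mice 2 to 4 they were -0.51, 0.17, and -0.52, and in the HFD+1B mice 0.50, -0.07, 0.40, -0.11, and 0.41. Every ethanol-treated mouse lay above every chow mouse, and HFD mouse 3 alone among the HFD mice lay within the range of the ethanol-treated mice. Mat1a was 1.90-fold higher in 1B than in chow (difference 0.93 ± 0.17 SE, adjusted p = 0.0050) and 1.97-fold higher in HFD+1B than in chow (0.97 ± 0.16 SE, adjusted p = 0.00058). On HFD, the ethanol difference was 0.52 (95% interval 0.14 to 0.89), with an adjusted p of 0.055. That difference was called in 6 of 32 alternatives. With the outlier-marked spot of HFD mouse 1 kept, a setting chosen after seeing the data, it was 0.57 (adjusted p = 0.021). It was 0.69 with median centring of the arrays (adjusted p = 0.019). It was also called among probes well above background on all 17 arrays (adjusted p = 0.047). The remaining calls came without HFD mouse 3 or HFD+1B mouse 2 or 4 (adjusted p from 0.011 to 0.039).

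Mat2a encodes the catalytic subunit found outside the liver and in dividing or injured hepatocytes. The chow mice had log2 ratios of -1.40, -1.01, -0.79, and -0.68 and the HFD mice -1.15, -0.60, -0.67, and -0.71. The 1B mice had -0.51, -0.23, -0.26, and 0.02, and the HFD+1B mice 0.14, -0.02, 0.30, 0.48, and -0.06. The ethanol-treated mice of each diet lay above all maltose mice of both diets. Mat2a was 1.66-fold higher in 1B than in chow (difference 0.73 ± 0.17 SE, adjusted p = 0.018), 1.94-fold higher in HFD+1B than in HFD (0.95 ± 0.16 SE, adjusted p = 0.00065), and 2.20-fold higher in HFD+1B than in chow (1.14 ± 0.16 SE, adjusted p = 8e-05). The diet alone gave a difference of 0.19 (95% interval -0.16 to 0.53), and the ethanol effects on the 2 diets differed by 0.23 (95% interval -0.26 to 0.71, adjusted p = 0.64). Within the slides that held both groups, the ethanol difference on HFD was above 0 on 4 of 4 slides and that on chow on 3 of 3. The 1B call was lost without chow mouse 1 or 1B mouse 4 (0.58 and 0.64, adjusted p = 0.060 and 0.063), with median centring of the arrays in place of loess (0.64, adjusted p = 0.089), and with Cy5 alone (0.76, adjusted p = 0.071).

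Of the enzymes that use the methyl group, Gnmt moved in opposite directions with ethanol and with diet. Gnmt encodes glycine N-methyltransferase, an abundant liver enzyme that disposes of excess S-adenosylmethionine by methylating glycine. Its log2 ratios were 0.38, 0.34, 0.23, and 0.09 in chow and 0.82, 0.74, 0.93, and 1.06 in 1B. They were -0.37, -0.54, and -0.20 in the HFD mice 2 to 4 and 0.02, -0.40, 0.46, -0.41, and 0.14 in HFD+1B. The 1B mice were the highest and the HFD mice lay below every chow mouse, while the HFD+1B mice spread from the HFD range to above the chow range. Gnmt was 1.55-fold higher in 1B than in chow (difference 0.63 ± 0.16 SE, adjusted p = 0.036) and 1.55-fold lower in HFD than in chow (-0.63 ± 0.17 SE, adjusted p = 0.029). Between the ethanol groups it was 1.90-fold lower on HFD (-0.93 ± 0.15 SE, adjusted p = 0.00094). The ethanol difference on HFD was 0.33 (95% interval -0.02 to 0.68), and the difference of the ethanol effects was -0.30 (95% interval -0.78 to 0.19, adjusted p = 0.52). With the deposited log2 table in place of the ratios computed here, both calls against chow were lost, at 0.53 (adjusted p = 0.25) for 1B and -0.48 (adjusted p = 0.13) for HFD, and the call between the ethanol groups remained. Cy5 alone ended both as well, at 0.38 (adjusted p = 0.57) and -0.43 (adjusted p = 0.27), and median centring that for 1B (0.45, adjusted p = 0.30). With slide as a block both were lost (0.64 and -0.66, adjusted p = 0.089 and 0.073), and likewise with the replicate number as a block (0.63 and -0.61, adjusted p = 0.068 and 0.060). The call for 1B was also lost without any one of the 8 mice compared, and that for HFD without chow mouse 1, 2, or 3 or HFD mouse 2 or 3.

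Pemt encodes phosphatidylethanolamine N-methyltransferase, which makes phosphatidylcholine with methyl groups from S-adenosylmethionine, and it was lowest in HFD+1B at both of its probes. At the brighter probe, A_51_P193093, the HFD+1B mice had log2 ratios of -0.51, -0.57, -0.15, -0.53, and -0.37 and the HFD mice -0.14, 0.18, 0.02, and 0.19. The chow mice had 0.07, -0.01, 0.23, and -0.0033, and the 1B mice -0.11, -0.19, -0.05, and 0.09. All HFD+1B mice lay below all chow and HFD mice, HFD mouse 1 being just above HFD+1B mouse 3, and HFD+1B mouse 3 alone lay within the 1B range. Pemt was 1.40-fold lower in HFD+1B than in HFD (difference -0.49 ± 0.10 SE, adjusted p = 0.0035), 1.41-fold lower than in chow (-0.50 ± 0.10 SE, adjusted p = 0.0026), and 1.28-fold lower than in 1B (-0.36 ± 0.10 SE, adjusted p = 0.031). The second probe gave -0.47 (adjusted p = 0.0026) against HFD and -0.41 (adjusted p = 0.0066) against chow, whereas its difference of -0.28 from 1B had an adjusted p of 0.077. Ethanol on chow gave -0.13 (95% interval -0.36 to 0.09) and HFD alone -0.01 (95% interval -0.24 to 0.22). The ethanol effects on the 2 diets differed by -0.35, with an unadjusted p of 0.030 from limma and an adjusted p of 0.19. The call against HFD was lost with median centring of the arrays in place of loess (-0.24, adjusted p = 0.24) and with Cy5 alone (-0.45, adjusted p = 0.12), and that against 1B with both of these, with the deposited log2 table, in a model of the compared groups only, and without any one of 1B mice 1, 3, and 4 and HFD+1B mice 1, 2, and 4.

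Nnmt had the largest single difference of the 9 genes, between HFD+1B and HFD, and, among the brightest probes of the 9 genes, the largest SD within each group. It encodes nicotinamide N-methyltransferase, which methylates nicotinamide. The chow mice had log2 ratios of -0.67, -0.83, -2.02, and -2.03 and the HFD mice -1.61, -1.99, -1.09, and -2.45. The 1B mice had 0.28, 0.26, -0.21, and 0.18, and the HFD+1B mice 1.09, -1.36, 0.46, 0.26, and 0.27. Apart from HFD+1B mouse 2, which lay among the maltose mice, every ethanol-treated mouse exceeded every maltose mouse. Nnmt was 3.82-fold higher in HFD+1B than in HFD (difference 1.93 ± 0.40 SE, adjusted p = 0.0030) and 2.90-fold higher in HFD+1B than in chow (1.53 ± 0.40 SE, adjusted p = 0.013). The latter call was lost without chow mouse 3 or chow mouse 4, at 1.32 in both cases (adjusted p = 0.055 and 0.058). On chow, the ethanol difference was 1.52 ± 0.42 SE, with no overlap of the groups, and its adjusted p of 0.053 missed the threshold; with slide as a block the difference was 1.60 with an adjusted p of 0.014, and with the replicate block 1.52 with an adjusted p of 0.048. The ethanol effects on the 2 diets differed by 0.41 (95% interval -0.80 to 1.63).

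Ahcy, which encodes S-adenosylhomocysteine hydrolase, was highest in chow and lower in each of the other groups. At the brighter probe, A_51_P473528, the chow mice had log2 ratios of 0.97, 0.84, 0.74, and 0.79 and the 1B mice -0.03, 0.27, 0.30, and 0.07. The HFD mice 2 to 4 had 0.13, -0.07, and 0.12, and the HFD+1B mice -0.03, -0.95, 0.08, -0.40, and -0.56. No mouse of the other 3 groups reached the lowest chow mouse. Ahcy was 1.60-fold lower in 1B than in chow (difference -0.68 ± 0.17 SE, adjusted p = 0.033), 1.71-fold lower in HFD (-0.77 ± 0.18 SE, adjusted p = 0.014), and 2.30-fold lower in HFD+1B (-1.20 ± 0.16 SE, adjusted p = 7.9e-05). HFD+1B was also called lower than 1B (-0.52 ± 0.16 SE, adjusted p = 0.049), a call that was lost without any one of 14 mice, while its difference from HFD of -0.43 had an adjusted p of 0.10. Among the 14 mice, the 4 chow mice and HFD mice 2 to 4 were in neither ethanol group. Without any one of them the difference from 1B stayed at -0.52. The 1B call against chow was lost without any one of the 4 chow mice or without 1B mouse 1, 2, or 4, and the HFD call without HFD mouse 3 (-0.71, adjusted p = 0.065). The 1B call was lost too with slide as a block (-0.65, adjusted p = 0.090), with the replicate block (-0.68, adjusted p = 0.062), with the deposited table (-0.74, adjusted p = 0.061), with Cy5 alone (-0.53, adjusted p = 0.11), and with the mean of both probes (-0.62, adjusted p = 0.53), and the HFD call with Cy5 alone (-0.53, adjusted p = 0.077). The call between the ethanol groups was lost in each of the settings that ended the 1B call, with adjusted p-values from 0.060 with Cy5 alone to 0.34 with the mean of both probes, and with median centring (adjusted p = 0.135), with no filter on dim probes (adjusted p = 0.062), and in a model of the compared groups only (adjusted p = 0.13).

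The second Ahcy probe, A_52_P176160, passed the test in none of the comparisons. It had log2 ratios of 0.38, 0.17, and 0.32 in the chow mice 2 to 4, -0.02, 0.0044, -0.12, and -0.27 in 1B, and -0.08, -0.96, -0.88, -0.66, and -1.28 in HFD+1B. In the HFD mice the values were -0.06, -0.21, -4.75, and -0.95. The chow mice were again above all others, and HFD mouse 3 stood far below every other mouse of the series. On that array the spot had a Cy5 intensity above background of 450.5 units against 2207 to 5046.5 units in the other HFD mice, with a Cy3 intensity of 27681.5 units, and scanner software had not marked it as an outlier. The spread from this value enters every comparison of the probe: its difference of -1.06 between HFD+1B and chow had a standard error of 0.71 and an adjusted p of 0.39. The sequence of this probe is printed above.

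**Figure D3:**
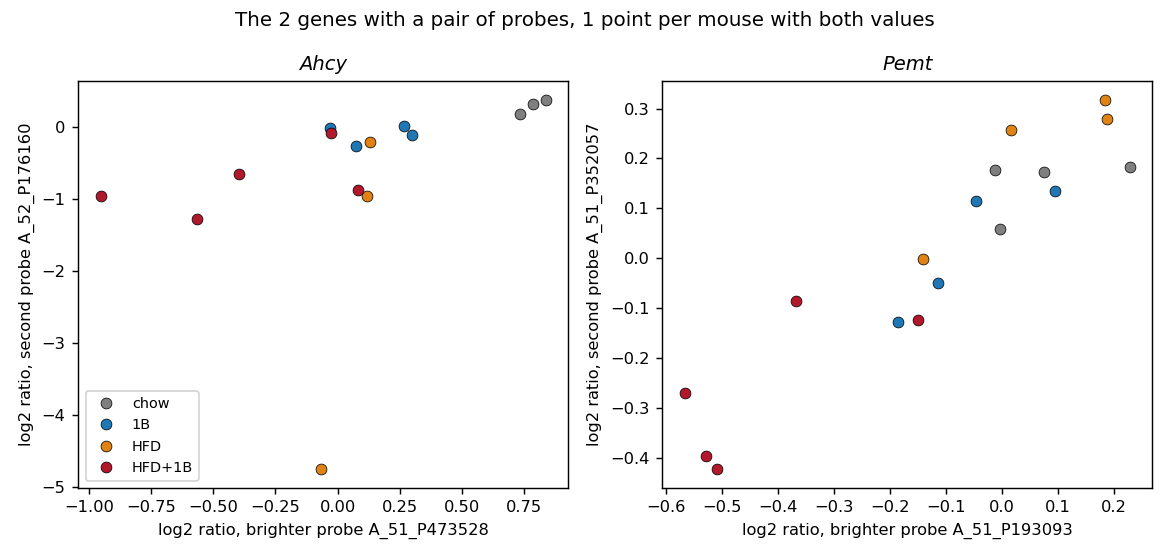
Log2 ratios of the brighter probe (horizontal axis) and the second probe (vertical axis) of Ahcy and of Pemt, with 1 point per mouse measured at both probes and colors for the 4 groups. HFD mouse 3 lies at -4.75 on the second Ahcy probe, and the HFD+1B mice lie at the lower left for Pemt.

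Bhmt had the largest difference between the ethanol effects on the 2 diets among the 9 genes. It encodes betaine-homocysteine S-methyltransferase, which returns homocysteine to methionine with a methyl group from betaine. The chow mice had log2 ratios of -0.34, -0.25, -0.03, and -0.49 and the 1B mice 0.84, 0.65, 0.94, and 0.48. The HFD mice 2 to 4 had 0.30, 0.80, and 0.41, and the HFD+1B mice -0.03, -0.03, 0.20, -0.03, and 0.21. The 1B and HFD mice were all above the chow and HFD+1B mice, and the HFD+1B mice overlapped the chow range only at its upper end. Ethanol raised Bhmt 2.00-fold on chow (difference 1.00 ± 0.13 SE, adjusted p = 0.000295) and lowered it 1.35-fold on HFD (-0.44 ± 0.14 SE, adjusted p = 0.035). HFD with maltose was 1.71-fold above chow (0.78 ± 0.14 SE, adjusted p = 0.00295), and HFD+1B was 1.58-fold below 1B (-0.66 ± 0.13 SE, adjusted p = 0.0028). The ethanol effect on HFD minus that on chow was -1.44 ± 0.19 SE (95% interval -1.84 to -1.04, adjusted p = 0.0018). This difference stayed called, between -1.54 and -0.997, in all 29 alternatives that could give it, with adjusted p-values from 0.00042 to 0.034. The fall on HFD itself was less firm: it was lost with median centring (-0.30, adjusted p = 0.34), with Cy5 alone (-0.47, adjusted p = 0.053), in a model of the compared groups only (adjusted p = 0.060), and without HFD mouse 3 or 4 or HFD+1B mouse 1, 2, or 4. Median centring also ended the calls for HFD against chow (0.49, adjusted p = 0.18) and HFD+1B against 1B (-0.63, adjusted p = 0.057), and Cy5 alone that for 1B against chow (0.53, adjusted p = 0.067) and that for HFD+1B against 1B (-0.39, adjusted p = 0.11). HFD+1B and chow differed by 0.34 (95% interval 0.08 to 0.60, adjusted p = 0.082).

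**Figure D4:**
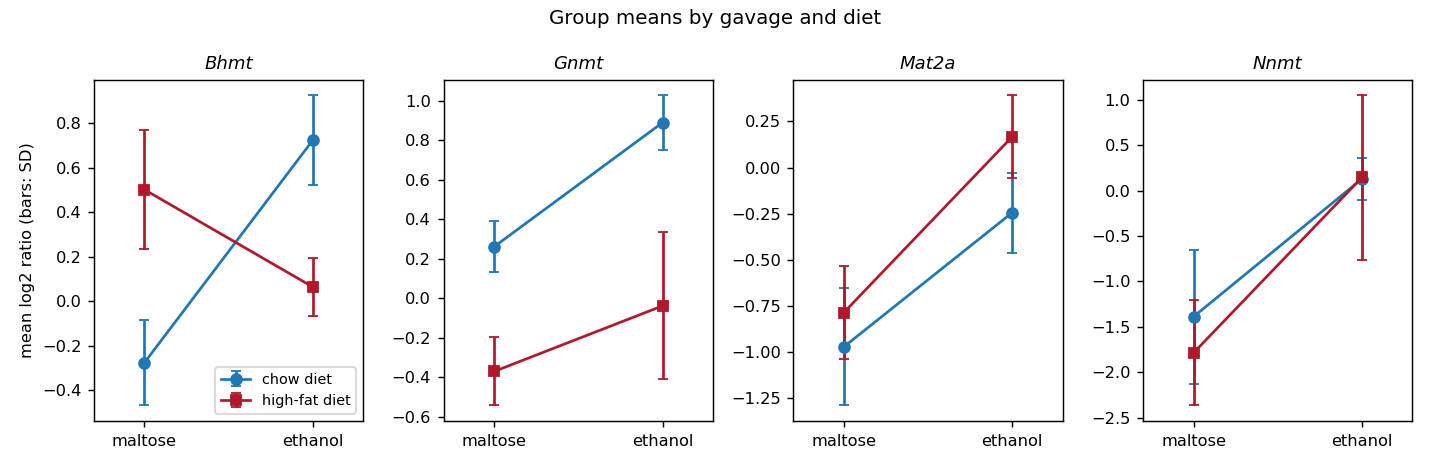
Mean log2 ratio (vertical axis, bars SD) of Bhmt, Gnmt, Mat2a, and Nnmt after maltose or ethanol, with lines joining the 2 groups on chow (blue circles) and on the high-fat diet (red squares). The Bhmt lines cross, from -0.27 to 0.73 on chow and from 0.50 to 0.06 on HFD, while both lines slope upward for the other 3 genes.

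The 2 transsulfuration enzymes differed in behavior. Cbs encodes cystathionine beta-synthase, which joins homocysteine and serine, and it passed the test in none of the 6 comparisons. Its log2 ratios were -0.08, -0.15, -0.26, and -0.28 in the chow mice and 0.16, 0.18, -0.09, and 0.25 in the 1B mice. The HFD mice had 0.42, 0.08, -0.22, and -0.37, and the HFD+1B mice 0.57, -0.24, 0.43, 0.09, and 0.48. The HFD and HFD+1B mice spread over 0.79 and 0.80, against 0.20 in chow, and all groups overlapped. The largest difference, HFD+1B minus chow, was 0.46 (95% interval 0.12 to 0.80, adjusted p = 0.069). It was called in 4 of 32 alternatives. These were without HFD+1B mouse 2 (0.58, adjusted p = 0.014) or HFD mouse 1 (0.46, adjusted p = 0.042), with slide as a block (0.49, adjusted p = 0.021), and with median centring (0.45, adjusted p = 0.043). HFD mouse 1 was in neither group compared, and leaving it out did not change the difference itself. Median centring also called the difference between HFD+1B and HFD (0.53, adjusted p = 0.013).

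Cth encodes cystathionine gamma-lyase, which releases cysteine from cystathionine, and it fell with each exposure. The chow mice 1, 2, and 4 had log2 ratios of 1.03, 0.96, and 0.45, and the 1B mice 1 to 3 had -0.09, -0.30, and -0.20. The HFD mice 1, 2, and 4 had -0.19, -0.20, and -0.47, and the HFD+1B mice -0.37, -1.58, -0.54, -1.28, and -0.59. Every other mouse lay below the 3 chow mice, and HFD+1B mice 2 and 4 were the lowest of all. Cth was 2.02-fold lower in 1B than in chow (difference -1.01 ± 0.26 SE, adjusted p = 0.047), 2.15-fold lower in HFD (-1.10 ± 0.26 SE, adjusted p = 0.017), and 3.22-fold lower in HFD+1B (-1.69 ± 0.24 SE, adjusted p = 0.00019). The last call held in all 32 alternatives, between -1.87 and -1.49. The 1B call was lost without 1 mouse in 11 of 17 cases, among them any one of chow mice 1 to 3 and of the 4 1B mice, and the HFD call without chow mouse 1, chow mouse 2, or HFD mouse 4. Chow mouse 3 and 1B mouse 4 had no Cth value, and the 1B difference stayed at -1.01 without either. It also stayed at -1.01 in the cases that left out HFD mouse 1, 2, or 4 or HFD+1B mouse 5, which were in neither group compared. The 1B call was also lost with the deposited table (adjusted p = 0.056), with Cy5 alone (adjusted p = 0.088), and with no filter on dim probes (adjusted p = 0.069), at differences of -1.03 to -1.01. HFD+1B differed from HFD by -0.58 (adjusted p = 0.10) and from 1B by -0.68 (adjusted p = 0.089).

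The order of the group means differed among the 9 genes. Mat1a, Mat2a, and Cbs had the order chow, HFD, 1B, HFD+1B from low to high, and for Mat2a the step from HFD to 1B was past the threshold (0.54, adjusted p = 0.040), while no neighbors passed the test for Mat1a or Cbs. For Nnmt, in the order HFD, chow, 1B, HFD+1B, no neighbors passed the test either. Ahcy and Cth had the order HFD+1B, HFD, 1B, chow, in which only the step from 1B to chow was called. In Gnmt, in the order HFD, HFD+1B, chow, 1B, only the step from chow to 1B was called. In Bhmt, in the order chow, HFD+1B, HFD, 1B, only the step from HFD+1B to HFD was called. In Pemt, in the order HFD+1B, 1B, HFD, chow, only the step from HFD+1B to 1B was called. The comparison of HFD with 1B was added after the data were seen, to place these neighbors. In it, Gnmt (-1.26, adjusted p = 0.00023), Nnmt (-1.92, adjusted p = 0.0063), and Mat2a were lower in HFD, where 7.06% of all probes were lower and 5.35% higher. The groups did not overlap for 3 of the 9 genes, against 17.8% of all probes, and 2 of them passed a fold of 2 with an unadjusted p, against 1.93%.

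Over the arrays, Ahcy and Cth varied most alike among the 9 genes (Pearson r = 0.93 over 13 arrays with both values, 0.68 after the group means were removed). Mat1a and Nnmt followed (r = 0.83 over 16 arrays, 0.79 within groups). Mat2a and Cth varied in opposite directions (r = -0.77 over 14 arrays, -0.29 within groups). Within groups, Mat1a and Cth correlated at 0.86 over 13 arrays, although their r over all of these arrays was -0.485. HFD+1B mice 2 and 4 had the 2 lowest values of their group for Mat1a, Cbs, Cth, Gnmt, Nnmt, and the brighter Pemt probe. They did not for Mat2a, Ahcy, and Bhmt. These coefficients describe arrays that share groups, slides, and a reference, and they carry no test.

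The genes whose log2 ratios were most like those of each member were sought among the 15371 genes whose brightest probe was well above background and had a value on every array. Sardh, the sarcosine dehydrogenase, was closest to Ahcy (r = 0.95 over 16 arrays), and Slc27a5 (0.95) was also among the 3 closest. Serpina3n (0.93), Fgg (0.92), and Lrg1 (0.92) were closest to Mat1a, and Serpina3c (0.93), Bcl3 (0.91), and Cpb2 (0.90) to Nnmt. Serpina3n, Fgg, and Lrg1 are known as acute phase genes. Mat2a was closest to Gramd3, Tmem87b, and Alpl (all 0.92), Gnmt to Fam47e (0.94), Sec14l4 (0.94), and F7 (0.93), and Pemt to Asgr2 (0.92), Hint2 (0.92), and Fxyd1 (0.91). Cth was closest to Ces3b (0.93), Gsto1 (0.93), and Upp2 (0.92) over 14 arrays. The closest genes were less alike for Bhmt, with Pnpla7 (0.86), Kdm4a (0.86), and Pelo (0.84), and for Cbs, with Dpp9 (0.85), Map3k6 (0.83), and Apbb3 (0.82).

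Around the 9 enzymes, 111 further genes of 9 related lists were tested, and 8 of them (7.21%) were called in 1B against chow, 15 (13.5%) in HFD against chow, 28 (25.2%) in HFD+1B against HFD, 21 (18.9%) in HFD+1B against 1B, 28 (25.2%) in HFD+1B against chow, and 11 (9.91%) in the difference of the ethanol effects. The shares over all probes are given above for each comparison. No list gene with the symbol Amt was tested. Among 12 small-molecule methyltransferases, Inmt, which methylates indole amines, fell in 1B (3.33-fold, adjusted p = 0.00070), in HFD (2.96-fold, adjusted p = 0.0014), and in HFD+1B (4.52-fold, adjusted p = 1.3e-05), each against chow. The median difference of the list in 1B against chow was -0.07.

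Of 10 partners of the methionine cycle tested, none was called in 1B against chow or in HFD+1B against 1B. Mettl7a1, a methyltransferase-like gene, fell 2.92-fold in HFD against chow (adjusted p = 0.0014) and 2.12-fold in HFD+1B against chow (adjusted p = 0.0053), and Mettl16 fell 1.41-fold in HFD+1B against HFD (adjusted p = 0.011), a call lost with median centring and with Cy5 alone. Bhmt2, the relative of Bhmt that methylates homocysteine with S-methylmethionine, had a difference of ethanol effects of -0.63 (adjusted p = 0.0497), which was lost in 3 of 4 other scalings.

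In the list of choline and glycine donors, 5 of 9 genes were called in HFD+1B against chow, with a list median of -0.27. Glyat, glycine N-acyltransferase, was 2.16-fold lower (adjusted p = 0.00015), Sardh 1.85-fold lower (adjusted p = 0.00045), and Pipox and Gatm were lower as well, while Slc44a1, a choline transporter, was 1.34-fold higher (adjusted p = 0.017). Slc44a1, Pipox, and Gatm were chosen for naming after their values were seen. With Cy5 alone the Glyat call was lost (-0.965, adjusted p = 0.315). None of the 9 was called in 1B against chow. In phosphatidylcholine synthesis, Chka, choline kinase alpha, was 4.45-fold higher in HFD+1B than in chow (adjusted p = 7.8e-05), 2.69-fold higher than in HFD (adjusted p = 0.0032), and 2.25-fold higher than in 1B (adjusted p = 0.017), the last call being lost with Cy5 alone. Etnk2, an ethanolamine kinase, rose 2.46-fold with ethanol on HFD (adjusted p = 0.0016). In that comparison, 3 of the 12 genes of the phosphatidylcholine list rose and 3 fell, with a list median of -0.06. Pisd, phosphatidylserine decarboxylase, was 1.34-fold lower in HFD+1B than in chow (adjusted p = 0.041), a call lost in 3 of 4 other scalings.

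Of 21 folate enzymes tested, 6 fell and 1 rose in HFD+1B against HFD and 14 were not called, with a list median of -0.10. Fpgs, which adds glutamates to folate, fell 1.99-fold (adjusted p = 0.0022) and Shmt1, the cytosolic serine hydroxymethyltransferase, fell 1.40-fold (adjusted p = 0.015), the latter call being lost with median centring and with Cy5 alone. Mthfd1l, a mitochondrial folate enzyme, was 1.65-fold higher in HFD than in chow (adjusted p = 0.0062) and 1.65-fold higher in HFD+1B (adjusted p = 0.0020). Its differences of 0.73 on the log2 scale in both comparisons were 2.25 and 2.12 with the deposited table, and the call for HFD was lost with Cy5 alone (0.45, adjusted p = 0.20). Slc25a32, the mitochondrial folate carrier, was 1.62-fold higher in HFD+1B than in chow (adjusted p = 0.0055), a call lost with Cy5 alone.

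Downstream of transsulfuration, 12 genes were tested. Gclc, the catalytic subunit that limits glutathione synthesis, fell 1.77-fold in 1B against chow (adjusted p = 0.0037), and was 1.71-fold higher in HFD+1B than in 1B (adjusted p = 0.0021). Cdo1, cysteine dioxygenase, was 1.68-fold higher in HFD+1B than in chow (adjusted p = 0.0012) and 1.70-fold higher than in HFD (adjusted p = 0.0025). Got1, the cytosolic aspartate aminotransferase, moved most: it was 2.32-fold higher in 1B than in chow (adjusted p = 0.023), 2.22-fold lower in HFD than in chow (adjusted p = 0.019), and 7.34-fold higher in HFD+1B than after maltose on HFD (adjusted p = 8e-06). With Cy5 alone both Gclc calls and the Got1 call for 1B were lost, as were both Cdo1 calls, whose differences went from 0.75 to 0.36 against chow (adjusted p = 0.19) and from 0.76 to 0.40 against HFD (adjusted p = 0.16).

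Among 14 polyamine and methionine salvage genes, 2 rose and 2 fell in HFD+1B against chow, with a list median of -0.04. In HFD+1B against HFD, 1 rose and 2 fell, with a list median of -0.21. There Mtap fell 1.43-fold (adjusted p = 0.0017), a call lost with median centring and with Cy5 alone. Sat1, the spermidine acetyltransferase, was 2.47-fold higher in HFD+1B than in chow (adjusted p = 0.00026) and 2.73-fold higher than in 1B (adjusted p = 0.00050). Smox, spermine oxidase, was 1.71-fold higher in HFD (adjusted p = 0.017) and 1.98-fold higher in HFD+1B (adjusted p = 0.0011), both against chow. With the deposited table its log2 difference for HFD+1B was 1.71 in place of 0.99, and its HFD call was lost there (1.11, adjusted p = 0.097) and with Cy5 alone (0.34, adjusted p = 0.48). Of 9 genes of the DNA methylation list, which also holds Tet genes, 3 rose and none fell in HFD+1B against chow (Dnmt1, Dnmt3a, and Tet3). In HFD+1B against HFD, 3 rose and none fell (Dnmt3a, Dnmt3l, and Tet1). Of all probes, 14.8% were called in the first of these comparisons and 17.9% in the second. Dnmt3a, a de novo DNA methyltransferase, was 1.75-fold higher in 1B than in chow (adjusted p = 4.5e-05) and 1.41-fold higher in HFD+1B than in chow (adjusted p = 0.00041), the latter call being lost with Cy5 alone, and that of Tet3 with Cy5 alone and with the deposited table. Tet1, which oxidizes methylcytosine, was 1.83-fold lower in HFD than in chow (adjusted p = 0.0011) by the ratio to the reference, but with Cy5 alone this difference was 0.02 and not called, and the rise in HFD+1B against HFD was lost as well. Of 12 nicotinamide and NAD enzymes, none was called in 1B or in HFD against chow, and Aox3, an aldehyde oxidase, was 2.27-fold lower in HFD+1B than in chow (adjusted p = 0.00011).

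**Figure D5:**
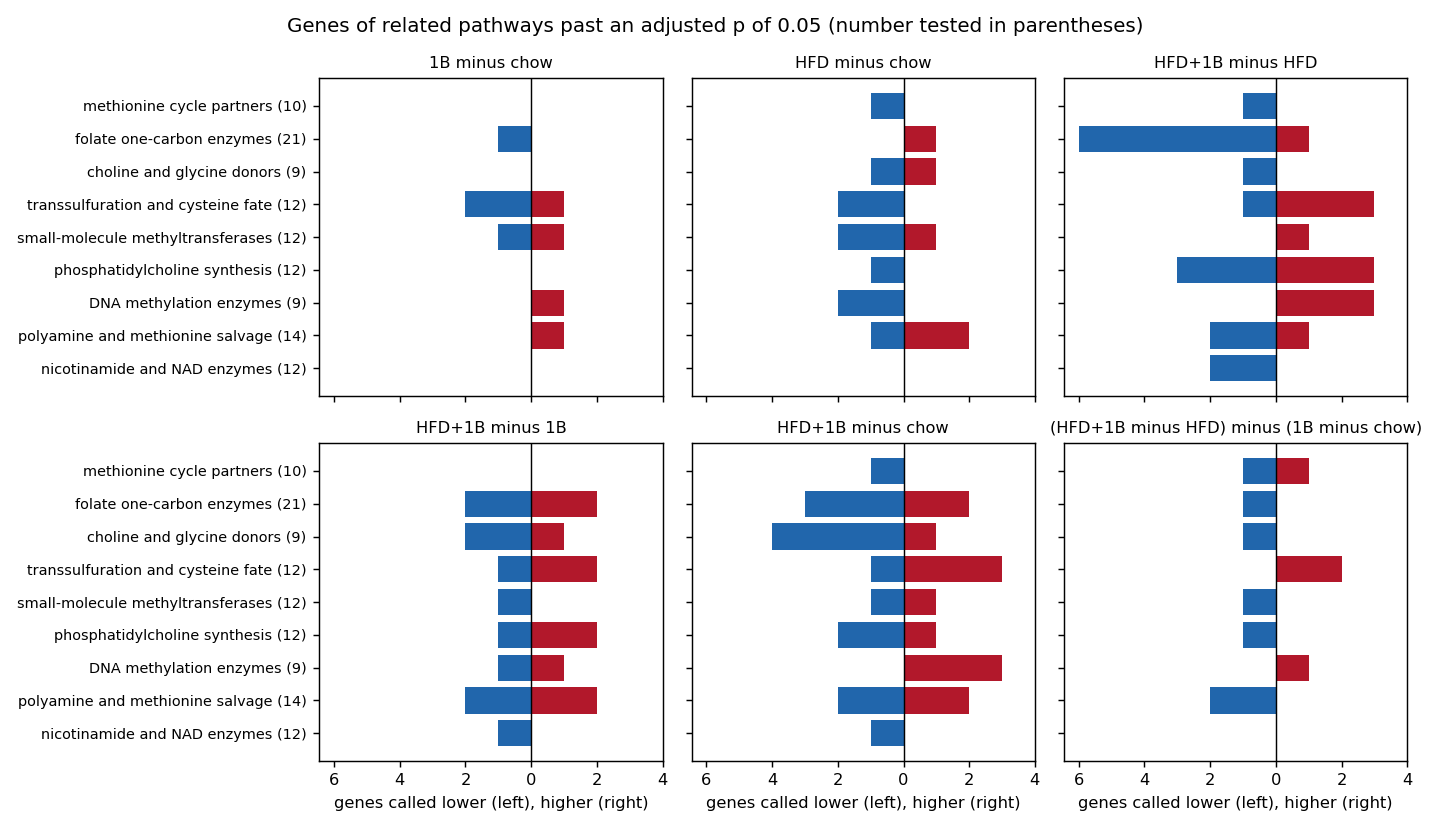
Number of genes called, by the adjusted p (horizontal axis, lower to the left in blue and higher to the right in red) for 9 lists of related genes in 6 comparisons, with the number tested in parentheses. The folate list has 6 lower genes in HFD+1B against HFD, the choline and glycine list 4 in HFD+1B against chow.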

How the data were processed

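Liver RNA of 17 mice (Cy5) was hybridized with a common reference RNA (Cy3) on 2-color arrays, without dye swaps. Per the file headers, scanner intensity was extracted with Agilent Feature Extraction (version 11.5.1.1). The authors deposited a table of log2 ratios, which equalled the log2 of the processed red over green signals. Here, median intensities were background-corrected by normexp (offset 50) and normalized by loess within arrays in limma (version 3.58.1) and R (version 4.3.3). Outlier-marked spots were left out, and spots of 1 probe were averaged. Probes well above background in Cy5 on at least 4 arrays and with a value in every group were tested (34664). A limma model of 4 group means with 13 residual degrees of freedom gave the differences. Benjamini-Hochberg adjustment ran over all probes tested, and 0.05 was the threshold. Each gene was read at its probe brightest in Cy5. Samples were grouped by the labels, 1 mouse each.

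The members and gene lists were chosen with earlier results of these data known. From each list, up to 2 called genes with the largest absolute difference per comparison are named, and for each member the 3 genes of highest Pearson r. Named results of 2 genes that these rules chose are not reported here. Marker lists covered hepatocytes, neutrophils, macrophages, stellate cells, sinusoidal endothelium, cholangiocytes, T and B cells, adipocytes, and acinar cells. The number of arrays limits the precision. Alternatives covered background, normalization, the deposited table, Cy5 alone, filters, slide and replicate blocks, probe choice, call rules, the methods' Tukey test, and leaving out each mouse. Calculations were tested on simulated data.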

Additional observations from a re-analysis of the deposited data

Results flagged for a closer look

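At the Pemt probe A_51_P352057, chow mouse 4 had a log2 ratio of 0.0593, while the other chow mice had 0.17 to 0.18. By Dixon's test it was the only value past the critical ratio of gap to range among the 36 groups of 4 or 5 mice examined, and chance alone puts about 1 in 20 past it. HFD mouse 3 at the second Ahcy probe (-4.75) had a ratio of 0.81, just below the critical value for 4 mice. The brighter Pemt probe had -0.0033 in chow mouse 4, within the range of the chow group.

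The effect of ethanol differed between the diets by the interaction test in limma for Bhmt, at -1.44 (ethanol effect on HFD minus that on chow, adjusted p = 0.0018), with the groups described above. Among the named genes of the related lists, the difference was positive for Got1 (1.66, adjusted p = 0.029), Mettl7a1 (1.35, adjusted p = 0.042), Tet1 (1.06, adjusted p = 0.0092), and Sqrdl (0.71, adjusted p = 0.026). It was negative for Glyat (-1.03, adjusted p = 0.023), Srm (-0.90, adjusted p = 0.022), Shmt1 (-0.88, adjusted p = 0.017), Pisd (-0.74, adjusted p = 0.040), Mtap (-0.68, adjusted p = 0.015), and Bhmt2 (-0.63, adjusted p = 0.0497). With Cy5 alone, the differences for Tet1 and Glyat changed sign and were not called. Those for Got1, Sqrdl, Srm, Shmt1, Pisd, Mtap, and Bhmt2 kept their sign but were not called either (adjusted p from 0.091 to 0.62). Median centring ended the calls for Glyat, Srm, Shmt1, Pisd, Mtap, and Bhmt2 (adjusted p from 0.14 to 0.60). The deposited table ended those for Mettl7a1, Glyat, Srm, Shmt1, and Pisd. The HFD group, which enters each of these differences, is also the group with the lowest ribosomal RNA signal, whose part was not tested.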

How the results depend on the processing

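None of the 25 called differences of the 9 genes changed its sign in any alternative. Of these, 14 stayed called without each of the 17 mice in turn, and 4 stayed called in every alternative (Mat2a, Ahcy, and Cth in HFD+1B against chow, and the Bhmt difference of ethanol effects). The cause of the changes listed here was not tested unless the setting itself is a stricter call rule or uses fewer mice.

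The number of genes called, 6 for 1B against chow, 4 for HFD against chow, 4 for HFD+1B against HFD, 4 for HFD+1B against 1B, 6 for HFD+1B against chow, and 1 for the difference of ethanol effects, changed as follows. With Cy5 alone the first 4 counts were 2, 2, 2, and 1. With the deposited log2 table they were 3 for 1B against chow and 2 for HFD+1B against 1B. Median centring left 1 and a model of the compared groups only left 2 for HFD+1B against 1B. A fold of 2 with an unadjusted p gave 3, 1, 1, and 0 in the first 4 comparisons, where limma with adjustment gave 6, 4, 4, and 4. A fold of 1.5 with an adjusted p gave 2 for HFD+1B against HFD and 2 for HFD+1B against 1B. The methods' Tukey test gave 7, 4, 4, 4, and 6 calls at its own threshold, and after Benjamini-Hochberg adjustment 1, 0, 2, and 2 in the first 4 comparisons. In HFD against chow, 5 genes had an unadjusted p of 0.05 or less in limma. Outlier spots kept, a setting added after seeing the data, gave 6, 4, 5, 4, 6, and 1.

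Leaving out 1 mouse gave 2 to 7 calls for 1B against chow, 2 to 4 for HFD against chow, 3 to 5 for HFD+1B against HFD, 2 to 4 for HFD+1B against 1B, 5 to 7 for HFD+1B against chow, and 1 throughout for the difference of ethanol effects. The count for 1B against chow was 3 without chow mouse 1 or 3 or 1B mouse 1 or 2 and 2 without 1B mouse 4. That for HFD against chow was 2 without chow mouse 1 or 2 or HFD mouse 3. That for HFD+1B against 1B was 2 without 1B mouse 1, 3, or 4 or HFD+1B mouse 2 or 4.

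Replicate numbers are shared between groups. Same-numbered mice correlated at -0.128 to 0.473 in their deviations from the group means (median 0.17, 16 of 24 pairs over 0.1), and other pairs at a median of -0.05 (19 of 84 over 0.1). Mice of the same slide had a median of 0.186 (16 of 21 over 0.1), against -0.043 between slides (19 of 87). Same-numbered and same-slide mice thus deviated together more often than others, but not in every pair, which was the rule for taking the numbers as pairing, so both blocks are given. With the replicate block the counts were 5, 4, 5, 4, 7, and 1, and with slide as a block 5, 3, 4, 3, 7, and 1. Each block ended 2 Ahcy and 2 Gnmt calls, given above. The replicate block called Mat1a in HFD against chow (0.54, adjusted p = 0.048), Cth in HFD+1B against HFD (-0.74, adjusted p = 0.015), Mat2a in HFD+1B against 1B (0.47, adjusted p = 0.013), Bhmt in HFD+1B against chow (0.30, adjusted p = 0.045), and Nnmt in 1B against chow, and slide as a block called Nnmt in 1B against chow and Cbs in HFD+1B against chow.

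Some differences that were not called changed sign. With median centring, these were Mat2a (-0.0314) and Cbs (-0.0726) in HFD against chow and the differences of ethanol effects of Cbs (0.31), Gnmt (0.0346), and Pemt (0.0340). With the deposited table, they were Pemt in HFD against chow (0.0277) and the Cbs difference of ethanol effects (0.0014). With Cy5 alone, they were Cbs in HFD against chow (-0.0379), Nnmt in HFD+1B against 1B (-0.21), and the differences of ethanol effects of Cbs (0.17) and Nnmt (-0.13). Nnmt in HFD+1B against 1B was -0.0352 with slide as a block and -0.0170 with the replicate block, and the Cbs difference of ethanol effects was 0.0028 with slide as a block. With the mean of all probes of a gene, Pemt was 0.0275 in HFD against chow and Ahcy 0.16 in HFD+1B against HFD. Without 1 mouse, Pemt ranged from -0.0519 to 0.0571 in HFD against chow, Nnmt from -0.22 to 0.39 and Mat1a from -0.0204 to 0.13 in HFD+1B against 1B, and the Cbs difference of ethanol effects from -0.15 to 0.11.

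For the named genes of the related lists, with scalings chosen after seeing the data, 75 of 76 values stayed called without background subtraction, 54 with median centring, 57 with the deposited table, and 33 with Cy5 alone. With Cy5 alone, 3 changed sign, Tet1 in HFD against chow (0.0166) and the differences of ethanol effects of Tet1 (-0.37) and Glyat (0.10).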
